A study of Mus musculus with 6 samples.

Results

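Laminins are the large secreted glycoproteins that polymerize into the sheet on which a basement membrane is built, and 9 genes for their alpha, beta and gamma chains were followed in a mouse podocyte culture. Podocytes are epithelial cells of the glomerulus that rest on the kidney's filtration membrane. Each laminin is a heterotrimer with an alpha, a beta and a gamma chain, joined through a coiled coil. It is named by its chains, so that α5β2γ1 holds the products of Lama5, Lamb2 and Lamc1. In the developing glomerulus α1β1γ1 is laid down early and gives way to α5β1γ1 and then α5β2γ1, the laminin of the mature filtration barrier, and loss of LAMB2 causes the congenital nephrotic disease called Pierson syndrome. The genes were listed by name as Lama1 to Lama5, Lamb1, Lamb2, Lamb3 and Lamc1. Each was read from the probe set that carried only its symbol, and all 9 were found among the 30718 named genes of the array.

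The samples were total RNA from conditionally immortalized lines, cells that multiply under a permissive condition and mature once it is withdrawn, harvested from type I collagen at day 10 of differentiation. A line labelled wildtype and a line labelled NCK1/2 knockout, after the adaptors that couple nephrin and other phosphorylated receptors to actin, were each hybridized to 3 arrays, 6 in all. The replicates are described as independent, but what makes them so is not stated in the labels, so the p-values measure the spread between these arrays. Each genotype was 1 line, and genotype and line cannot be told apart. How the knockout was made, where each line came from and how many clones lie behind it are not stated in the labels.

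Arrays of 1 line correlated at 0.993 to 0.997 across genes and arrays of different lines at 0.978 to 0.985. The targeted Nck1 fell by 0.51 on the log2 scale (limma adjusted p = 0.00391), from 8.63 to 8.12, which was still above the background range described below. Nck2 went from 7.48 to 7.24, within that range in both lines, and its difference of -0.24 did not pass (adjusted p = 0.094). Neither probe set could be placed against the deleted segment, so the loss of both genes is taken from the label. The X-inactivation transcript Xist was at a mean of 12.19 in wildtype and 6.01 in knockout and the Y-linked Uty at 5.21 and 9.90, so the lines also differed in sex chromosome transcripts. The labelled cell type was borne out only in part. Of 10 measured podocyte markers, Synpo, Podxl, Cd2ap and Actn4 were above the background range in both lines and Plce1 in knockout only. The other 5, the defining genes Nphs1 (nephrin) and Wt1 with Ptpro, Foxc2 and Tcf21, were above it in neither. Of 10 parietal and tubular epithelial markers 4 were within the range in both lines. The rest, Aqp1, Lrp2, Cdh16, Pax8, Pax2 and Cldn1, were above it in both. All of these markers but Plce1, Aqp1 and Lrp2 were named after their values were seen. In bulk RNA a lower level per cell and fewer cells that express a gene cannot be told apart.

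Of the 9 laminin chains, Lama1 and Lamb1 fell in knockout, Lama5 rose and 6 did not pass the test. The call was a limma adjusted p under 0.05 after Benjamini-Hochberg adjustment over all named genes. By that rule 12.0% of all genes were called, 5.06% as higher and 6.91% as lower, and 23.6% of the genes whose mean lay above the background range. The median log2 fold change was 0.00 over the 9 chains and 0.012 over all genes. The values of the 2 lines did not overlap for the 3 called chains, beside 27.4% of all genes (12.6% higher and 14.8% lower), and overlapped for the other 6. The alpha1 chain showed by far the widest gap, with a 2.8-fold lower intensity in knockout, while the called changes of Lama5 and Lamb1 were 1.27-fold and 1.28-fold.

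**Figure D1:**
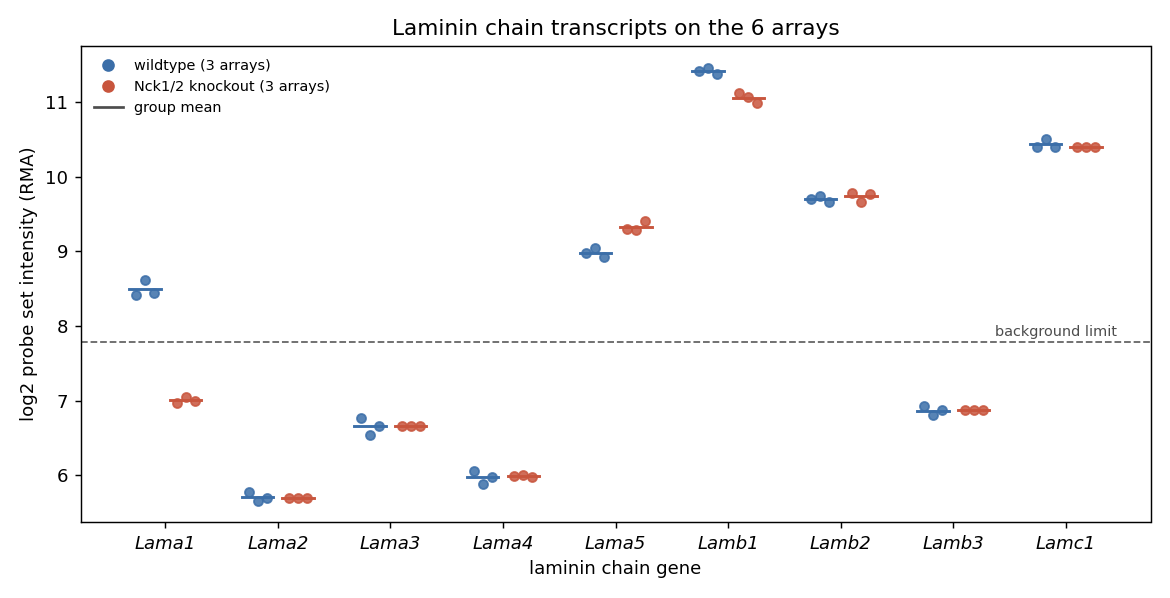
Log2 probe set intensity (vertical axis) of each laminin chain gene (horizontal axis) on the 3 wildtype and 3 knockout arrays, with a bar at each group mean and a dashed line at the background limit of 7.78. Lama1 lies above the line in wildtype and below it in knockout, Lama5 and Lamb1 part without overlap above the line, and Lama2, Lama3, Lama4 and Lamb3 lie below it in both lines; heights of different genes are not comparable.

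The alpha chains carry the globular domains bound by cell surface receptors and thereby determine which receptors a laminin engages. Lama1 encodes the alpha1 chain of the early embryonic and tubular laminins. Its log2 intensities were 8.42, 8.62 and 8.44 on the wildtype arrays and 6.97, 7.05 and 7.0 on the knockout arrays. All 3 knockout values were thus more than 1 log2 unit under the lowest wildtype value. The means were 8.49 ± 0.11 and 7.01 ± 0.04 (SD, n = 3 each), which differ by -1.48 on the log2 scale (SE 0.07, 95% confidence interval -1.64 to -1.33, limma adjusted p = 6.05e-05). The array carries 23 background control probe sets with means from 2.33 to 7.78, and a group mean that does not exceed the highest of these is called within the background range. The knockout mean of Lama1 was within it and the wildtype mean above it, so the size of this fold rests on a level not separated from background.

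Lama5 encodes the alpha5 chain, which is the alpha chain of the mature glomerular basement membrane. Its wildtype values were 8.97, 9.05 and 8.92 and its knockout values 9.30, 9.28 and 9.40. Every knockout array was above every wildtype array, and all 6 values were above the background range. The means of 8.98 ± 0.07 and 9.33 ± 0.06 (SD, n = 3 each) gave a log2 fold change of 0.34 (SE 0.06, interval 0.21 to 0.48, limma adjusted p = 0.0114). This was the call that depended on a single array: without wildtype replicate 3 the log2 fold change was 0.31 with an adjusted p of 0.0593, where the alternatives ran from 0.00358 to 0.0593.

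The remaining alpha chains are those of muscle and peripheral nerve (Lama2), of skin and other epithelia (Lama3) and of vessels and mesenchyme (Lama4). Lama2 was at 5.78, 5.66 and 5.69 in wildtype and at 5.69 on each knockout array. Lama3 was at 6.77, 6.54 and 6.66 in wildtype and at 6.66 on each knockout array. Lama4 was at 6.06, 5.88 and 5.98 in wildtype and 5.99, 6.0 and 5.98 in knockout. In all 3 genes the knockout values lay inside the wildtype range, and both means lay within the background range, where a gene is not shown to be silent. Their log2 differences were -0.02 (interval -0.13 to 0.10), 0.00 (-0.16 to 0.16) and 0.01 (-0.12 to 0.15), with limma adjusted p of 0.929, 1.0 and 0.952.

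The beta chains decide between the immature and the mature forms of the podocyte laminin. Lamb1, the beta chain of the early trimers, was at 11.41, 11.46 and 11.37 in wildtype and at 11.12, 11.06 and 10.98 in knockout. The groups were separated by a gap wider than the range within either of them. The means of 11.41 ± 0.04 and 11.05 ± 0.07 (SD, n = 3 each) gave a log2 fold change of -0.36 (SE 0.05, interval -0.49 to -0.23, limma adjusted p = 0.00748). Lamb2, the beta chain of the mature filtration barrier, was at 9.70, 9.74 and 9.66 in wildtype and 9.78, 9.66 and 9.77 in knockout. Knockout replicate 2 equalled the lowest wildtype array while the other knockout arrays were above all wildtype arrays, and the difference of 0.04 (interval -0.09 to 0.17) did not pass (adjusted p = 0.804). Lamb3, the beta chain of the epidermal anchoring laminin, was at 6.93, 6.8 and 6.87 in wildtype and 6.87 on every knockout array, within the background range in both lines. Its difference was 0.005 (interval -0.12 to 0.13, adjusted p = 0.983), and the annotation ties a further gene identifier to its probe set.

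Lamc1 encodes the gamma1 chain, which nearly all laminins share and through which nidogen binds. It was at 10.39, 10.51 and 10.39 in wildtype and at 10.39 on every knockout array, well above the background range. Wildtype replicate 2 alone stood higher, and the log2 difference of -0.04 (interval -0.17 to 0.08, adjusted p = 0.77) did not pass. Over the 6 chains that did not pass, the intervals reached from -0.17 to 0.17. The gamma3 gene Lamc3, which is not among the 9, lay just inside the background range in both lines, at 7.75 ± 0.12 and 7.77 ± 0.02 (SD, n = 3 each), with a difference of 0.02 that did not pass (adjusted p = 0.951).

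**Figure D2:**
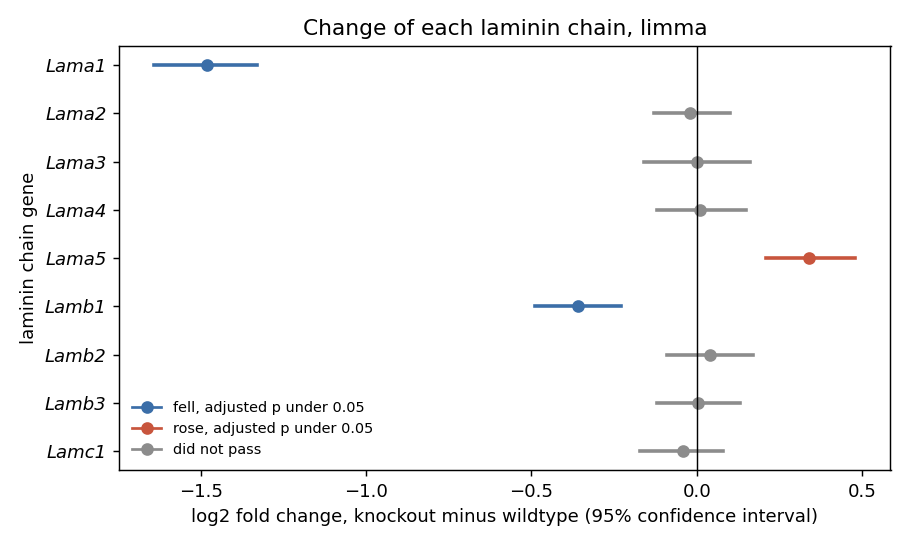
Log2 fold change, knockout minus wildtype, of each laminin chain gene (points) with its 95% confidence interval from limma (lines), coloured by whether it fell, rose or did not pass. Lama1 at -1.48, Lamb1 at -0.36 and Lama5 at 0.34 have intervals clear of 0, and the other 6 intervals span it.

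The chains differed in their spread. The SD ran from 0.04 to 0.11 over the 3 wildtype arrays and from 0.00 to 0.07 over the 3 knockout arrays. For 4 chains, Lama2, Lama3, Lamb3 and Lamc1, the 3 knockout values were identical to every decimal deposited and equalled wildtype array 3. The median polish that summarises probes can give such ties, which occurred in the knockout group of 1648 genes and can understate the spread. In all 4 chains within the background range in both lines, wildtype array 1 was the highest and wildtype array 2 the lowest of the 3. Over all genes these arrays also had the narrowest and the widest spread of the wildtype group, with SDs of 1.81 and 1.90 on the log2 scale. The 3 called chains kept their direction without either of them.

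The trimers that each line had the transcripts for were read from the chains above the background range. In wildtype 5 of the 9 chains were above it (Lama1, Lama5, Lamb1, Lamb2 and Lamc1) and in knockout 4, the same without Lama1. The reading covered 10 established trimers, all with gamma1. In wildtype 4 trimers had all chain transcripts above the range, namely α1β1γ1, α1β2γ1, α5β1γ1 and α5β2γ1. In knockout 2 did, α5β1γ1 and α5β2γ1. The trimers with alpha2, alpha3 or alpha4 had an alpha chain within the range in both lines. This reading turns on the limit: with the third quartile of the control means, 6.96, in place of the highest, Lama1 in knockout at 7.01 was above it and both lines had the same 4 trimers, and with the median of the control means, 4.48, all 10 were counted in both lines. Requiring every array of a line to be above the limit left the counts at 4 and 2. Protein, assembly and secretion were not measured.

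The alpha and the beta pair of the developmental switch were also read within each array. Taking Lama5 minus Lama1 on each array and setting the wildtype mean to 0, the wildtype arrays lay at 0.06, -0.05 and -0.01 and the knockout arrays at 1.84, 1.74 and 1.91. The mean difference between the lines was 1.83 log2 units, a size that rests on the knockout level of Lama1, which was not separated from background. For Lamb2 minus Lamb1 the wildtype arrays all rounded to 0.00 and the knockout arrays lay at 0.38, 0.32 and 0.50, a mean difference of 0.40 between genes above background in both lines. In neither pair did the lines overlap. Each pair holds a chain already called without overlap (Lama1 and Lama5, and Lamb1), so this restates those calls and is no further support. These are differences in change between probe sets and say nothing of which chain was more abundant, and they were not tested.

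Upstream sequence was at hand for 5 of the 9 chains in the RefSeq promoter table of GRCm38.p6, Lama1 not being among them. The 250 bases before the listed start are shown for Lama5, which rose, for Lamb1, which fell, and for Lamb2, the other beta chain above background, which did not pass, since the 3 differ in base composition and motifs. Each reads 5′ to 3′ on the gene's strand, and capitals mark the matches to the motifs searched on both strands. The windows are chr2:180225860-180226109 (minus strand) for Lama5, chr12:31265043-31265292 (plus strand) for Lamb1 and chr9:108479612-108479861 (plus strand) for Lamb2.
Lama5: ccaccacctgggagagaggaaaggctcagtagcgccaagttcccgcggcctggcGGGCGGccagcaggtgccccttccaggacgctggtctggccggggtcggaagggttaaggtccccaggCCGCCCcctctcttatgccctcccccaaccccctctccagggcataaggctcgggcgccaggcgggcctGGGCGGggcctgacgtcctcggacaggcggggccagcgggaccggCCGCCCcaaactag
Lamb1: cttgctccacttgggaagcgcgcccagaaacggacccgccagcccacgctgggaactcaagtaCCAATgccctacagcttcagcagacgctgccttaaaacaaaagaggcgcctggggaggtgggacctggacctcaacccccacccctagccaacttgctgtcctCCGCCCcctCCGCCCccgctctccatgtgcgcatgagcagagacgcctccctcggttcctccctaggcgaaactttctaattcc
Lamb2: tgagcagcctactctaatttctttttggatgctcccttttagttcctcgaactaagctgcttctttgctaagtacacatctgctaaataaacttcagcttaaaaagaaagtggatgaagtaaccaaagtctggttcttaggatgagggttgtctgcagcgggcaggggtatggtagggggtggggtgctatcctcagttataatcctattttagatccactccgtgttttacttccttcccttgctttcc
The GC content was 72.4% for Lama5, 62% for Lamb1 and 43.6% for Lamb2, against a median of 52.4% and quartiles of 45.2% and 61.2% over all 32851 windows of the table. The GC box GGGCGG, the core of the sites read by Sp factors, matched 4 times in Lama5 and 2 times in Lamb1 and had no match in Lamb2, and 32.7% of all windows held at least 1. The CCAAT box (CCAAT) matched once in Lamb1 and in neither of the others, beside 33.8% of all windows. The TATA box (TATAAA, 12.4% of windows) and the AP-1 motif (TGANTCA, 6.75% of windows) had no match in these windows. The motifs do not overlap each other in the printed windows, and a match is a description of the letters, not a measured binding site.

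The receptors that cells use to hold laminin did not follow a common direction. Among 13 with a probe set 3 fell, 1 rose and 9 missed the threshold, with a median of 0.02. This count and those of the lists below stand beside calls in 12.0% of all genes and 23.6% of genes above the background range. Dag1, which encodes dystroglycan, a receptor of the laminin globular domains, fell from 10.69 ± 0.07 to 10.00 ± 0.10 (SD, n = 3 each), a change of -0.68 on the log2 scale (SE 0.07, limma adjusted p = 0.00145). The syndecan gene Sdc2 fell by 0.55 (SE 0.05, adjusted p = 0.00135), and the collagen and laminin integrin gene Itga2 fell by 0.57 (SE 0.09, adjusted p = 0.00877) from a level that already lay within the background range. The gene that rose was Rpsa, the ribosomal protein also described as a laminin receptor, by 0.37 (SE 0.05, adjusted p = 0.0051), named here after its value was seen and uncertain because near-identical pseudogenes can share its probes. Integrin α3β1 is the podocyte's main laminin receptor: Itga3 differed by 0.04 (interval -0.07 to 0.16) and Itgb1 by -0.05 (-0.18 to 0.08), both chosen after their values were seen and neither passing (adjusted p = 0.732 and 0.721). With genes that had identical values in a group left out, the count of called receptors was 2, because Sdc2 and Rpsa then had no value.

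The sugar chain on dystroglycan that laminin binds, matriglycan, is built by a set of glycosyltransferases. Of 6 measured, 1 fell and 5 did not pass, with a median of -0.11. The mannosyltransferase gene Pomt2 fell by 0.32 (SE 0.07, adjusted p = 0.0398), a call lost with any 1 of the 6 arrays left out (adjusted p from 0.051 to 0.135) or with array medians taken off (0.108), and the kinase gene Pomk differed by -0.17 without passing (adjusted p = 0.137).

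Partners that tie laminin to the rest of the basement membrane changed in both directions. Among 11 with a probe set 6 rose, 2 fell and 3 missed the threshold, with a median of 0.34. The nidogens, which bridge the laminin gamma1 chain to type IV collagen, both rose. Nid1 was at 7.53, 7.07 and 7.35 in wildtype and 9.49, 9.49 and 9.50 in knockout, a log2 fold change of 2.18 (SE 0.11, adjusted p = 0.000121) from a wildtype mean within the background range. Nid2 was at 8.51, 8.51 and 8.40 in wildtype and 9.44, 9.43 and 9.52 in knockout, a log2 fold change of 0.99 (SE 0.05, adjusted p = 0.000145). Both nidogens thus rose while their docking chain Lamc1 stayed between 10.39 and 10.51 on all 6 arrays. The fibulin gene Fbln2, whose product binds laminin and nidogen, rose by 3.08 (SE 0.05, adjusted p = 1.63e-06). Its wildtype mean of 7.90 lay just above the background limit of 7.78. The others were chosen after their values were seen: the heparan sulfate proteoglycan gene Agrn rose by 0.57, Fbln1 by 0.42 and the laminin-binding netrin gene Ntn4 by 0.34, while the endostatin collagen gene Col18a1 fell by 0.74 and the perlecan gene Hspg2 by 0.57. The wildtype mean of Fbln1, 7.41, was within the background range. Hspg2 did not pass without wildtype replicate 1, wildtype replicate 2 or knockout replicate 1 (adjusted p from 0.0521 to 0.0608), Ntn4 without wildtype replicate 1 or 3 or knockout replicate 1 or 2 (0.0507 to 0.0733), and Fbln1 without wildtype replicate 3 or any knockout array (0.0908 to 0.108) or with the chromosome medians of brighter genes taken off (0.0744). Without knockout replicate 1 the count of called partners was 5 in place of 8.

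Type IV collagen forms the network that lies beside the laminin sheet. Of its 6 chains 2 rose, 2 fell and 2 did not pass, with a median of -0.12. The ubiquitous pair Col4a1 and Col4a2 rose by 2.19 and 2.56, from wildtype means of 8.01 and 8.08, little above the background limit. The pair Col4a5 and Col4a6 (Col4a5 named after its value was seen) changed by -0.98 and -1.02. Both lie on chromosome X, and the lines differed in sex chromosome transcripts. The median log2 fold change on X was 0.01 over all genes and -0.25 over brighter protein-coding genes. With the latter medians taken off, the count of called type IV collagen chains stayed at 4. The part of the sex chromosome difference in these falls was not tested.

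Among the netrins and related genes, which share the laminin N-terminal fold, 2 of 4 measured fell. Ntn1, a secreted guidance protein, was at 10.20, 10.36 and 10.25 in wildtype and 9.02, 9.0 and 9.06 in knockout, a log2 fold change of -1.25 (SE 0.06, adjusted p = 6.69e-05), and the lines did not overlap. Ntng1 fell by 0.43 (SE 0.08, adjusted p = 0.0174) inside the background range, and it missed the threshold when wildtype replicate 1 or a single knockout array was left out (adjusted p of 0.0626 to 0.0771).

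Among 7 proteases that trim laminin chains or their precursors, 1 rose, 2 fell and 4 did not pass, with a median of -0.07. The membrane metalloproteinase gene Mmp14 rose by 0.82 (SE 0.06, adjusted p = 0.00049), and the gelatinase gene Mmp2, whose precursor MMP14 activates, fell by 1.01 (SE 0.06, adjusted p = 0.000207). The tolloid-like gene Tll1 fell by 0.25 (adjusted p = 0.0355) within the background range, and did not pass with any 1 array left out (adjusted p from 0.055 to 0.144), with quantile normalization again (0.0644) or with array medians taken off (0.0794).

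**Figure D3:**
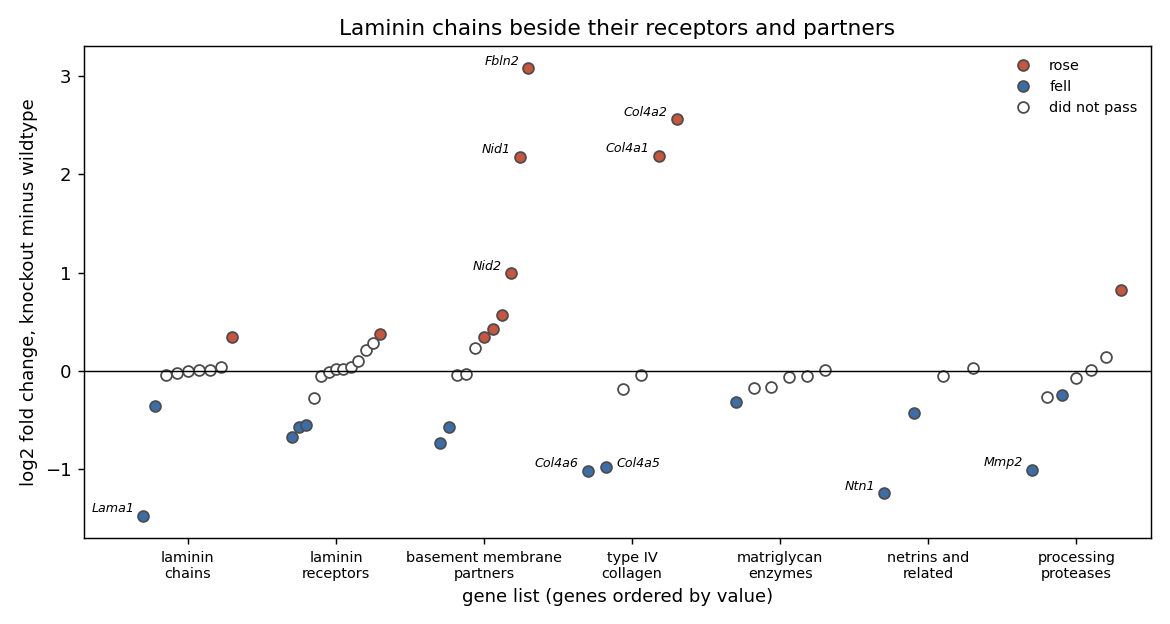
Log2 fold change, knockout minus wildtype (vertical axis), of each measured gene in the laminin chains and 6 related lists (horizontal axis), ordered by value within a list; filled points passed at an adjusted p under 0.05 and open points did not. Fbln2, Col4a2, Col4a1 and Nid1 lie above 2, while no laminin chain lies above Lama5 at 0.34 and Lama1 has the lowest point of all lists at -1.48.

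The genes whose profile over the 6 arrays lay nearest to each called chain were found among 8597 protein-coding genes with a mean above the background range, by the Euclidean distance between gene-centred log2 values. For Lama1 they were the transporter-family gene Mfsd6 at a distance of 0.103 (log2 fold change -1.53) and the aldehyde oxidase gene Aox1 at 0.128 (-1.55). For Lama5 they were Poldip3 at 0.0465 (0.34) and the purine nucleoside phosphorylase gene Pnp2 at 0.0652 (0.34). For Lamb1 they were the endocytic receptor gene Lrp2 at 0.0521 (-0.36) and the corepressor gene Ctbp1 at 0.0546 (-0.36). The arrays form 2 groups, so nearness is largely a like difference between the lines.

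Markers of other cell types moved beside the laminin chains, and their part in the laminin results was not tested. Of 10 parietal and tubular epithelial markers 5 fell and 5 did not pass, and their summed level (log2 of the summed intensities) ran from 14.25 to 14.35 in wildtype and 13.08 to 13.17 in knockout, where Aqp1 fell by 3.50 and Lrp2, among the nearest profiles to Lamb1, fell by 0.36. Of 5 fibroblast markers 2 rose, led by Dcn at 4.33 from a wildtype mean of 6.43 within the background range, and the summed level ran from 9.59 to 9.74 and from 12.26 to 12.39. Of 6 mesangial and pericyte markers Pdgfrb rose by 2.36 from a wildtype mean of 7.56 within the background range and Mcam fell by 0.22 inside that range, with summed levels of 9.56 to 9.71 and 10.53 to 10.69. Mcam missed the threshold when wildtype replicate 3 or a single knockout array was left out (adjusted p of 0.0532 to 0.0878). Of 10 endothelial markers 9 lay in the background range throughout, Pecam1 and Cdh5 among them, Ehd3 fell by 0.67, and the sums were 10.43 to 10.49 and 10.23 to 10.28. Of 5 leukocyte markers Csf1r fell by 1.21, Cd68 rose by 0.57 and Ptprc was within the background range in both lines, with sums of 10.20 to 10.32 and 9.70 to 9.98. The Cd68 call was lost with any 1 array but knockout replicate 3 left out (adjusted p from 0.0514 to 0.173) and with array medians taken off (0.0566). Of the 10 podocyte markers 2 rose, Plce1 by 3.12 from a wildtype mean within the background range and Actn4 by 0.61, and 8 did not pass. The podocyte sums were 12.58 to 12.66 and 13.06 to 13.11, where Actn4 was the brightest member, at 11.36 in wildtype and 11.97 in knockout. Every sum in this paragraph is weighted to its brightest probe sets and is not a level of a cell type. Mcam, Cd68, Actn4, Pecam1, Cdh5 and Ptprc were named after their values were seen.

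The chromosomes that carry the called chains showed little shift of their own. The median log2 fold change over the genes of a chromosome was 0.00 for chromosome 17 with Lama1, 0.01 for chromosome 2 with Lama5 and 0.02 for chromosome 12 with Lamb1. Over the brighter protein-coding genes alone it was -0.03, -0.04 and -0.02. With the latter taken off, the log2 fold changes were -1.45, 0.39 and -0.34, and all 3 passed (adjusted p of 0.00763 for Lama5 and 0.00947 for Lamb1). Lamb3 and Lamc1 share chromosome 1, where that median was -0.10, and their differences became 0.10 and 0.06 without passing.

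**Figure D4:**
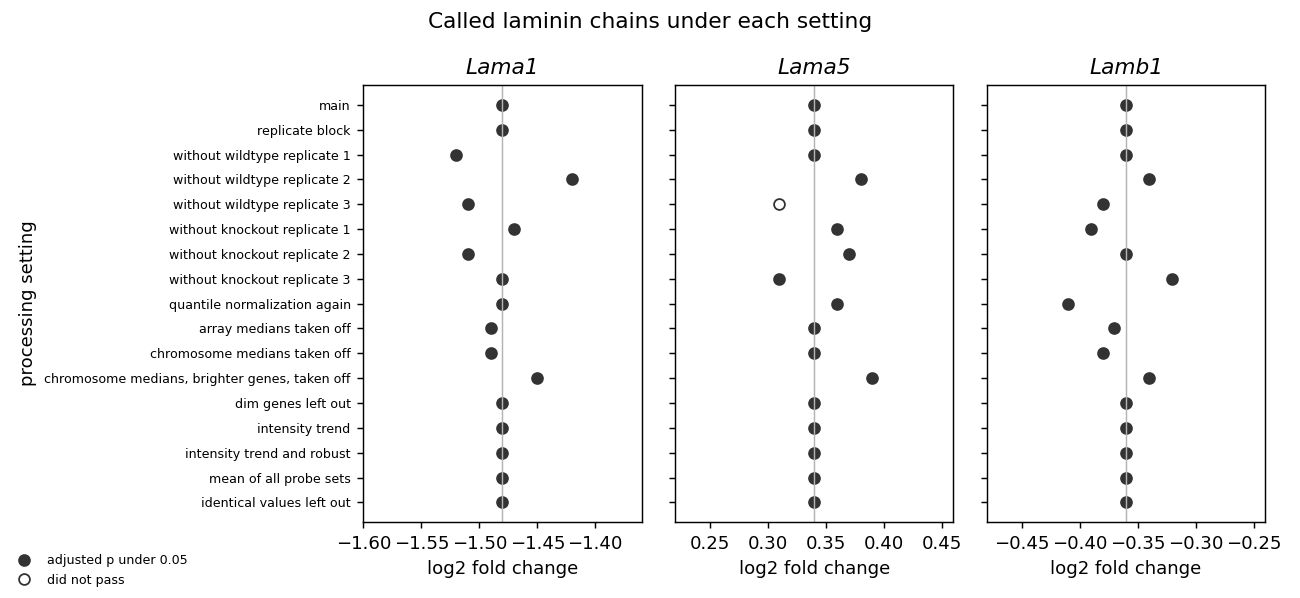
Log2 fold change (horizontal axis) of Lama1, Lama5 and Lamb1 under each processing setting (vertical axis), with the reported value as a grey line; filled points passed at an adjusted p under 0.05. All points keep their direction, and the only open point is Lama5 without wildtype replicate 3, at 0.31.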

How the data were processed

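Biotin-labelled cDNA of 6 total RNA samples was hybridized to Affymetrix arrays. The authors deposited a table of log2 intensities per probe set with a column for each array. The submitters' processing notes name affy 1.44.0 and RMA. RMA corrects background, quantile-normalizes and summarises probes by median polish. No source used here names the probe definition file or genome build, and scanner files were not used. Replicate numbers are given in the titles and no batch is named.

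Of 72688 probe sets, 31280 named 1 gene in the platform annotation after symbols were updated through a GRCm38.p6 gene table (used for names, gene type and chromosome only) and 1470 named several and were not used. Where a gene had several, the brightest on average was used, which gave 30718 genes, 30713 of them in that table. Each laminin chain had 1 probe set.

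The lines were compared gene by gene in limma 3.58.1 under R 4.3.3 (lmFit, eBayes, two-sided, no covariate, no filter on dim genes), with Benjamini-Hochberg adjustment over all genes at 0.05. Errors are SDs over 3 arrays, or limma standard errors and 95% confidence intervals for fold changes. Data were simulated at the spread of these arrays, with 200 of 30718 genes changed. The fit for knockout against wildtype found 40.3% of the 67 genes given a log2 change of 0.5. It found 91% of the 67 given 1 and 100% of the 66 given 2, and made 8 false calls. The real comparison called 3676 genes, so the adjusted threshold was stricter in the simulation. Changes as small as those of Lama5 and Lamb1 were not simulated, so how often such changes are missed was not measured. The number of arrays limits the precision. Plots used matplotlib 3.10.9 under Python 3.11.15.

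The laminin chains and the related lists were chosen with earlier results of these data known. Named genes were the 9 chains, up to 3 members with the largest called change of each related list (the leading 2 by p where fewer than 2 passed), the largest called change of each marker list, and the 2 nearest profiles of each called chain. Nck1, Nck2, Xist and Uty were read as checks, and other genes named outside this rule were chosen after their values were seen. Alternatives were the replicate block, leaving out each array, other normalizations, chromosome offsets, filters, variance models, probe set rules, a stricter threshold and other background limits.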

Additional observations from a re-analysis of the deposited data

How the results depend on the processing

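Lama1 and Lamb1 passed under all 17 alternatives, with log2 fold changes from -1.52 to -1.42 and from -0.41 to -0.32. Lama5 ran from 0.31 to 0.39 and passed under 15 of 17: it ran from 0.31 to 0.38 with arrays left out, missed without wildtype replicate 3 (0.31) and at a threshold of 0.01 (0.34, adjusted p = 0.0114). The count of called chains was 2 in those cases and 3 otherwise. Of the chains that did not pass, none passed under an alternative that gave it a value. Lama2, Lama3 and Lamb3 had no value with dim genes or with identical values left out, Lama4 none with dim genes left out, and Lamc1 none with identical values left out.

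With each array left out in turn the count of changed genes, 3676, ran from 2082 to 3393, and it was 1953 at a threshold of 0.01. At 0.01 the called genes were 5 of the partners, 1 of the netrins, 1 of the mesangial and pericyte markers, 1 of the leukocyte markers and 0 of the matriglycan enzymes, where Pomt2 had an adjusted p of 0.0398. With arrays left out the counts ran from 5 to 7 for the partners, from 1 to 2 for the netrins, for the mesangial and pericyte markers and for the leukocyte markers, and were 0 for the matriglycan enzymes. With array medians taken off 1 leukocyte marker and 0 matriglycan enzymes (limma adjusted p of 0.108 for Pomt2) were called, with dim genes left out 1 netrin, and with identical values left out 2 receptors. Chromosome medians of brighter protein-coding genes, a setting chosen after seeing the data, turned the split of called genes from 1554 higher and 2122 lower to 2802 and 1720.

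With the replicate block 3770 genes were changed, all 3 called chains passed (Lama5 at an adjusted p of 0.0325), 1 mesangial and pericyte marker was called and 0 matriglycan enzymes were. Among the related and marker genes the block lost Pomt2 (adjusted p = 0.0697), Tll1 (0.0646) and Mcam (0.0625) and added Sdc4 (0.0496) and Lum (0.0317), which made 5 receptors, 2 proteases and 3 fibroblast markers. The deviations of same-numbered arrays correlated at 0.347, 0.275 and 0.040 for numbers 1, 2 and 3. Between arrays of different numbers the correlations ran from -0.344 (wildtype 2 and knockout 1) to 0.0525 (wildtype 2 and knockout 3). Numbers 1 and 2 thus had higher correlations than any arrays of different numbers, and number 3 did not. The deviations of the 3 arrays of a line sum to 0, so these correlations are tied to each other. The high values for numbers 1 and 2 and the low ones between them are therefore not separate observations. Whether the numbers pair the samples is not settled, as the labels state no shared day, and the block was kept as an alternative.

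With the median of the background controls as the limit, 9 chains and 10 trimers were above it in each line. With their upper quartile 4 trimers were in knockout. The cause of these shifts in call was not tested beyond what each setting does by construction.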
